A study of Rattus norvegicus with 30 samples.

Results

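Lysosomal genes were followed as a group of 37 genes, chosen by name as proteins of the lysosome and found among the 13124 genes listed in the count table. All 37 had a mean of at least 3 CPM, counts scaled to the size of each library, in at least 1 group and were tested, among 12558 genes that met the same minimum. Their counts came from the right plantaris tendon of 30 male Sprague Dawley rats, 3 months old, by single-end RNA sequencing of whole tendon. The 3 control tendons came from rats that had neither surgery nor compound. The other 27 tendons were cut through at full thickness and sutured at once, in both hind limbs. They were collected after 7 days (7D) or 21 days (21D) from rats gavaged 2 times a day with GSK2894631A, an inhibitor of hematopoietic prostaglandin D synthase, at 0, 2 or 6 mg/kg. The 0 mg/kg rats received the suspension without compound, while nothing given by gavage is described for the control rats. The groups held 5, 4 and 3 tendons at 7D and 5 tendons per dose at 21D, and the spread behind each test was pooled over all 7 groups, of 3 to 5 tendons each.

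Lysosomes are acidic compartments in which hydrolases break down proteins, glycans and lipids taken up from outside the cell or delivered by autophagy. A vacuolar proton pump keeps them acidic, and most soluble hydrolases reach them through the mannose 6-phosphate receptors and the GGA adaptors. Transcription factors of the MiT/TFE family, such as TFEB, bind an E-box found upstream of many lysosomal genes, and macrophages and osteoclasts are rich in lysosomal proteins.

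The promoters of the group are shown for that E-box, CACGTG, and for its longer form, TCACGTGA, which contains CACGTG. Both read the same on either strand. RefSeq promoters of the rat assembly GRCr8, from 250 bases before to 50 bases after the gene start, were matched for 31 of the 37 genes. CACGTG was in 6 of the 31 promoters (19.4%), beside 9.21% of the promoters of genes tested and 6.65% of 27457 promoters in all. TCACGTGA was in 3 of the 31 (9.68%), beside 1.69% and 0.867%. Capitals below mark every CACGTG, and TCACGTGA where the longer form is complete. Lamp1, Mcoln1 and Ctsd are shown because they hold the longer form, a choice made after their values were seen. Idua is shown because its E-box begins 3 bases before the start and runs across it. Lgmn, the gene with the largest increase, is shown as a promoter of the group without either motif. The windows are chr16:83075014-83075313, minus strand for Lamp1, chr12:6358008-6358307, plus strand for Mcoln1, chr1:206968772-206969071, minus strand for Ctsd, chr14:1190879-1191178, minus strand for Idua and chr6:127347279-127347578, minus strand for Lgmn.
Lamp1: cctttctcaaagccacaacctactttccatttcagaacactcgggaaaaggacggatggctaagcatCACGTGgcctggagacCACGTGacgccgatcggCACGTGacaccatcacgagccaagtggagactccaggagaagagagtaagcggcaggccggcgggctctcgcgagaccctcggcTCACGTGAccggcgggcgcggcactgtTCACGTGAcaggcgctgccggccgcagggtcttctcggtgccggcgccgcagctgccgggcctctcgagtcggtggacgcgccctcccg
Mcoln1: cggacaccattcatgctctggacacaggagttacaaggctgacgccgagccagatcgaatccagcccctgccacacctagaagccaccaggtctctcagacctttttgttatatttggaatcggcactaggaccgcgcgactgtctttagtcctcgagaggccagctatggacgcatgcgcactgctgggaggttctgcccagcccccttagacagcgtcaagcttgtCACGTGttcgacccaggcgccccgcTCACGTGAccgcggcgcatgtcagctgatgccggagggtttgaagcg
Ctsd: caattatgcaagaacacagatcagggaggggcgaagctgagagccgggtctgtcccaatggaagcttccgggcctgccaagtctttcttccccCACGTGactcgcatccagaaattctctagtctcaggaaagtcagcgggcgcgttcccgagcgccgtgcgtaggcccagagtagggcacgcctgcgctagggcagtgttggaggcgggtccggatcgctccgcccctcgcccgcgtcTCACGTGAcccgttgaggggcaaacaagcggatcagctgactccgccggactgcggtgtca
Idua: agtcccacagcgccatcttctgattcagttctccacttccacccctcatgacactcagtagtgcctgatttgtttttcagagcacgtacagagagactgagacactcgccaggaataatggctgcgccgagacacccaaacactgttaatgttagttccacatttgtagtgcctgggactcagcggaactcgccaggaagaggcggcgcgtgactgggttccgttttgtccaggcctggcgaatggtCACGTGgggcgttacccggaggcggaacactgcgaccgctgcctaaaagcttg
Lgmn: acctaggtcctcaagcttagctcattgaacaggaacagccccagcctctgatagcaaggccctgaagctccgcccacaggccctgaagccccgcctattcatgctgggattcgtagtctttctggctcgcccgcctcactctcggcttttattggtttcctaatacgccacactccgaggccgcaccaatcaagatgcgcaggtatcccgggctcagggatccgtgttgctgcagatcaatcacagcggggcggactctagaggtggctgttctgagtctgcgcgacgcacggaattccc
Lamp1, the abundant lysosomal membrane glycoprotein, held 5 copies, 38 to 183 bases before its start, and 2 of them were the longer form. Mcoln1, the lysosomal calcium channel TRPML1, held 1 copy 22 bases before its start and 1 across its first bases. Ctsd, the aspartic protease cathepsin D, held copies 157 and 10 bases before its start. The other 2 genes with CACGTG were Glb1 and Cd63. A match describes these letters and is not a measured binding site.

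Total counts were 12405741 to 49909374 per tendon, and every tendon marker looked for (Tnmd, Scx, Mkx, Fmod, Thbs4, Comp, Dcn and Col1a1) had counts in the controls. Control tendons stood apart in their makeup. Genes of skeletal muscle took 16.7 to 24.0% of their counts, beside 0.134 to 1.10% at 7D 0 mg/kg and 0.0560 to 6.67% at 21D 0 mg/kg. Changes below are on the scale of TMM, the edgeR normalization that sets most genes level between tendons. Dividing by library size alone moved the median of all genes tested from 0.05 to 0.64 on the log2 scale at 7D, and from 0.03 to 0.59 at 21D. It called 7474 of the 12558 genes higher and 2418 lower at 7D 0 mg/kg, and 7267 and 2067 at 21D 0 mg/kg.

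**Figure D1:**
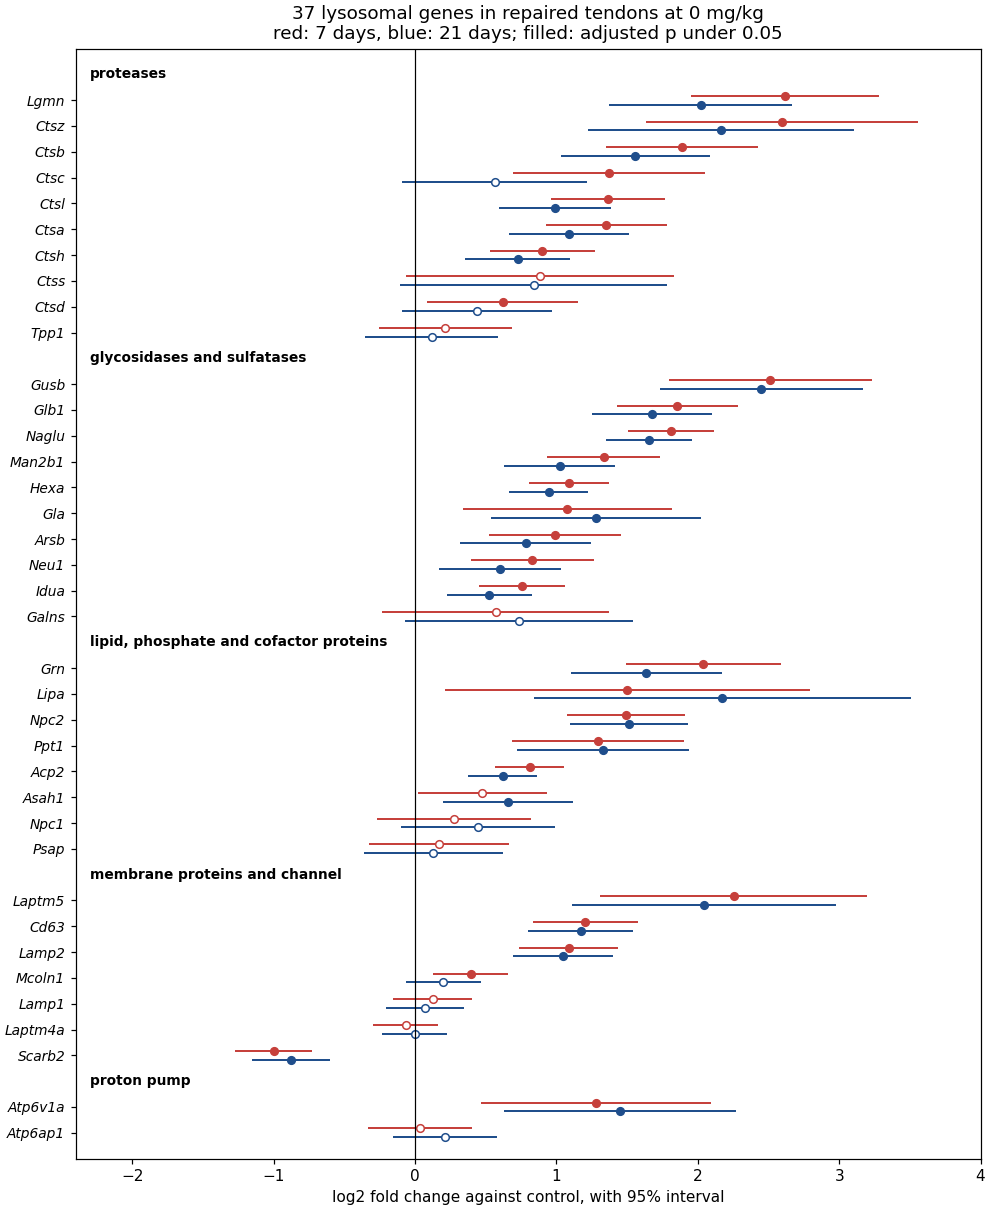
Log2 fold change of each of the 37 lysosomal genes against control tendons, with its 95% interval, at 7D (red) and 21D (blue) after repair at 0 mg/kg, grouped by role. Filled points passed the test, and all filled points lie right of 0 except the pair for Scarb2. With library size alone the other 36 genes were all called higher, beside 7474 of the 12558 genes tested at 7D and 7267 at 21D.

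Most lysosomal genes were higher in repaired than in control tendons. At 7D 0 mg/kg, 27 of the 37 were higher than in control tendons and 1 was lower at an adjusted p under 0.05 (edgeR quasi-likelihood test, Benjamini-Hochberg over all genes tested), while 35.8% of all genes tested were higher and 35.6% lower. The median log2 fold change of the 37 was 1.09, beside 0.05 over all genes tested, and the range ran from −1.0 to 2.62. In 25 of the 37 every repaired tendon was above every control tendon, and in 1 every one was below, beside 31.2% and 30.7% of all genes. Before TMM scaling, the 37 genes together took 0.511 to 0.668% of the counts in control tendons and 1.48 to 1.98% at 7D. On the TMM scale their sum was 8236 to 9061 CPM in controls and 13948 to 18873 CPM at 7D, a smaller difference. By role, 8 of 10 proteases and 9 of 10 glycosidases and sulfatases were higher. So were 5 of 8 lipid, phosphate and cofactor proteins, 4 of 7 membrane genes and 1 of 2 proton pump genes, beside 35.8% of all genes tested. RNA from whole tendon does not separate more cells of a type from more RNA per cell.

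Proteases made up 10 of the genes. At 7D 8 were higher and none lower by the edgeR test (8 at an unadjusted p under 0.05), beside 35.8% and 35.6% of all genes. Lgmn (ENSRNOG00000007089, chromosome 6), the asparaginyl protease legumain that also trims cathepsins to their mature forms, had 129.8, 109.5 and 87.8 CPM in the control tendons, 762, 418, 627, 725 and 814 CPM at 7D 0 mg/kg and 233, 732, 347, 502 and 396 CPM at 21D 0 mg/kg. Every repaired tendon at both times was above every control, and the 21D tendons spread over a wider range than the 7D tendons. Its level rose 6.14-fold at 7D (log2 fold change 2.62 ± 0.32 (SE), adjusted p = 1.06e-07) and 4.05-fold at 21D (log2 fold change 2.02 ± 0.31 (SE), adjusted p = 4.69e-06). Ctsz (ENSRNOG00000050697, chromosome 3), the carboxypeptidase cathepsin Z, had 44.3, 41.5 and 40.8 CPM in control tendons, 325, 177, 289, 201 and 280.4 CPM at 7D and 76.0, 378, 117, 173 and 200.5 CPM at 21D. The controls lay close together, no repaired tendon reached down to them, and the 21D tendons were the most spread out, with replicate 2 highest and replicate 1 lowest. Ctsz rose 6.03-fold at 7D (log2 fold change 2.59 ± 0.46 (SE), adjusted p = 2.43e-05) and 4.47-fold at 21D (log2 fold change 2.16 ± 0.45 (SE), adjusted p = 0.00021).

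Ctsc (ENSRNOG00000016496, chromosome 1), a dipeptidyl peptidase that activates the serine proteases of leukocyte granules, had 54.0, 73.3 and 70.0 CPM in control tendons, 135, 108, 193, 197 and 216 CPM at 7D and 63.9, 99.0, 110.4, 138 and 73.8 CPM at 21D. All 7D tendons were above the controls, whereas the 21D tendons overlapped them. Ctsc rose 2.58-fold at 7D (log2 fold change 1.37 ± 0.33 (SE), adjusted p = 0.000618), and at 21D its log2 fold change of 0.56 ± 0.32 did not pass (adjusted p = 0.118), though it did with library size alone (log2 fold change 1.12, adjusted p = 0.00329). The levels at 7D and 21D overlapped, and their direct test did not pass (−0.81, adjusted p = 0.0727). Among the other cathepsins, Ctsb (1.89 on the log2 scale at 7D, 1.56 at 21D), Ctsl (1.36 and 0.99) and Ctsh (0.90 and 0.72) rose at both times, as did Ctsa (1.35 and 1.09), the carboxypeptidase that holds Glb1 and Neu1 in a stable complex. Ctsd rose at 7D (0.62) and did not pass at 21D (0.44), and its 7D call was lost without control replicate 2 or 3 or 7D replicate 1 or 5 (0.48 to 0.56). Ctss (0.88 ± 0.46 at 7D) and Tpp1, a tripeptidyl peptidase (0.21 ± 0.23), did not pass at either time. Ctss passed at both times without control replicate 2 (1.29 and 1.25), and at 21D without 21D replicate 1 (1.05).

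Of the 10 glycosidases and sulfatases, which take glycosaminoglycans and glycoproteins apart, 9 were higher and none lower at 7D, and again 9 and none at 21D. These calls are by the edgeR test, with 9 at an unadjusted p under 0.05 each time. Of all genes tested 35.8% were higher and 35.6% lower at 7D, and 32.2% and 33.7% at 21D. Gusb (ENSRNOG00000000913, chromosome 12), the beta-glucuronidase, had 28.6, 30.3 and 21.0 CPM in control tendons, 183, 131, 156, 134 and 158 CPM at 7D and 93.6, 209.9, 107, 136 and 181 CPM at 21D. Its lowest repaired tendon was well above its highest control. Gusb rose 5.71-fold at 7D (log2 fold change 2.51 ± 0.35 (SE), adjusted p = 6.63e-07) and 5.45-fold at 21D (log2 fold change 2.45 ± 0.35 (SE), adjusted p = 1.55e-06). Idua (ENSRNOG00000000043, chromosome 14), the iduronidase that acts on heparan and dermatan sulfate, had 61.5, 55.8 and 47.4 CPM in control tendons, 81.1, 104, 88.1, 91.6 and 100.01 CPM at 7D and 73.2, 106, 76.7, 68.1 and 71.3 CPM at 21D. The groups did not overlap with the controls, and replicate 2 stood above the other 21D tendons. Idua rose 1.69-fold at 7D (log2 fold change 0.76 ± 0.14 (SE), adjusted p = 5.2e-05) and 1.44-fold at 21D (log2 fold change 0.52 ± 0.14 (SE), adjusted p = 0.00253). The beta-galactosidase Glb1 (1.86 and 1.68 on the log2 scale at 7D and 21D) and Naglu, a heparan sulfate hexosaminidase (1.81 and 1.65), rose at both times, as did Man2b1, Hexa, Gla, Arsb and Neu1, between 0.83 for Neu1 and 1.33 for Man2b1 at 7D. Galns, a sulfatase for keratan sulfate, had 0.57 ± 0.39 at 7D and 0.74 ± 0.39 at 21D and passed at neither, except at 21D without 21D replicate 1 (0.89). Gla was not called at 7D without control replicate 4 (0.92, adjusted p = 0.0513), nor Neu1 at 21D without control replicate 3 (0.50) or 21D replicate 2 (0.45).

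Lipid, phosphate and cofactor proteins counted 8 genes. By the edgeR test 5 were higher and none lower at 7D, beside 35.8% and 35.6% of all genes tested. At 21D 6 were higher and none lower, beside 32.2% and 33.7%. At an unadjusted p under 0.05 there were 6 each time. Grn (ENSRNOG00000021031, chromosome 10), progranulin, a secreted protein cleaved to granulins in the lysosome, had 175, 168 and 118 CPM in control tendons, 608, 509, 700.4, 600.2 and 739.5 CPM at 7D and 284, 686, 446, 526 and 447 CPM at 21D. No repaired tendon overlapped with the controls. Grn rose 4.11-fold at 7D (log2 fold change 2.04 ± 0.26 (SE), adjusted p = 2.36e-07) and 3.11-fold at 21D (log2 fold change 1.64 ± 0.26 (SE), adjusted p = 6.38e-06). Lipa, the acid lipase that frees cholesterol from its esters, had 59.0, 58.9 and 88.2 CPM in controls, 324, 162, 155, 110.4 and 221 CPM at 7D and 93.2, 762, 115, 155 and 423 CPM at 21D. The repaired tendons were all above the controls at both times, but they were widely spread within each group, and the log2 fold changes of 1.5 ± 0.62 at 7D and 2.17 ± 0.65 at 21D carried the largest SE of the 37 genes. Without 21D replicate 2 the 21D value was 1.52 (adjusted p = 0.0240). The 7D call was lost without any 1 control or without 7D replicate 1 or 5 (1.24 to 1.67, adjusted p 0.0511 to 0.107). Npc2, which hands cholesterol to Npc1, rose (1.49 at 7D, 1.51 at 21D), while Npc1 itself had 0.28 ± 0.26 and 0.45 ± 0.26 and did not pass. The thioesterase Ppt1 (1.29 and 1.33) and the acid phosphatase Acp2 (0.81 and 0.62) rose at both times. Asah1, acid ceramidase, passed at 21D only (0.48 ± 0.22 at 7D, 0.66 ± 0.22 at 21D), but the direct test of 21D against 7D did not pass (adjusted p = 0.609). Its 21D call was lost without control replicate 4 (0.40), and it passed at 7D without control replicate 2 (0.59) or 7D replicate 2 (0.55). Psap, the precursor of the saposins, had 0.17 ± 0.24 and passed at neither time.

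The 7 membrane genes split. At 7D 4 were higher and 1 lower, beside 35.8% and 35.6% of all genes tested. At 21D 3 were higher and 1 lower, beside 32.2% and 33.7%. Laptm5 (ENSRNOG00000011054, chromosome 5), a lysosomal membrane protein of blood-derived cells, had 88.9, 68.5 and 22.0 CPM in control tendons, 342, 211, 248, 243 and 383 CPM at 7D and 109, 452, 168, 250.05 and 258 CPM at 21D. Control replicate 4, listed last, had the lowest level, and even the lowest repaired tendon, at 21D, was above the highest control. Laptm5 rose 4.77-fold at 7D (log2 fold change 2.25 ± 0.46 (SE), adjusted p = 0.000107) and 4.13-fold at 21D (log2 fold change 2.05 ± 0.45 (SE), adjusted p = 0.000351). Scarb2 (ENSRNOG00000002225, chromosome 14), known as LIMP-2, the membrane receptor that carries beta-glucocerebrosidase to the lysosome, went the other way. It had 179, 167 and 157 CPM in control tendons, 86.3, 81.2, 80.6, 79.5 and 90.1 CPM at 7D and 68.1, 119.7, 87.9, 85.0 and 94.4 CPM at 21D. All repaired tendons at both times were below all controls. The level was 2.0-fold lower at 7D (log2 fold change −1.0 ± 0.13 (SE), adjusted p = 2.77e-07) and 1.84-fold lower at 21D (log2 fold change −0.88 ± 0.13 (SE), adjusted p = 3.09e-06), and Scarb2 was the only one of the 37 called lower against control in any of the 6 repaired groups. Library size alone kept it lower at 7D and 21D 0 mg/kg, but ended that call for 2 and 6 mg/kg at 7D and for 2 mg/kg at 21D.

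The tetraspanin Cd63 (1.20 and 1.17 on the log2 scale) and Lamp2, a membrane glycoprotein with a role in chaperone-mediated autophagy (1.09 and 1.05), rose at both times. Lamp1 did not pass at either time (0.12 ± 0.13 and 0.07 ± 0.13), and Mcoln1 passed at 7D (0.39) and not at 21D (0.20), with the 7D call lost without control replicate 2 (0.24) and a 21D call gained without control replicate 4 (0.35). Laptm4a (ENSRNOG00000006865, chromosome 6) had 695, 661 and 892 CPM in control tendons, 778, 707, 719, 700.2 and 674 CPM at 7D and 684, 677, 852, 736 and 785 CPM at 21D. The groups overlapped throughout. Its log2 fold change was −0.07 ± 0.11 at 7D (adjusted p = 0.599) and turned to 0.55 with library size alone, which moves all genes up. Of the proton pump, Atp6v1a (ENSRNOG00000001992, chromosome 11), the catalytic subunit of its V1 sector, had 43.8, 37.1 and 27.3 CPM in control tendons, 129, 69.5, 81.3, 65.5 and 93.7 CPM at 7D and 53.8, 191, 63.7, 78.8 and 107 CPM at 21D. No repaired tendon overlapped with the controls. Atp6v1a rose 2.43-fold at 7D (log2 fold change 1.28 ± 0.39 (SE), adjusted p = 0.00533) and 2.73-fold at 21D (log2 fold change 1.45 ± 0.40 (SE), adjusted p = 0.00246), while the accessory subunit Atp6ap1 had 0.03 ± 0.17 and 0.21 ± 0.18 and did not pass.

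**Figure D2:**
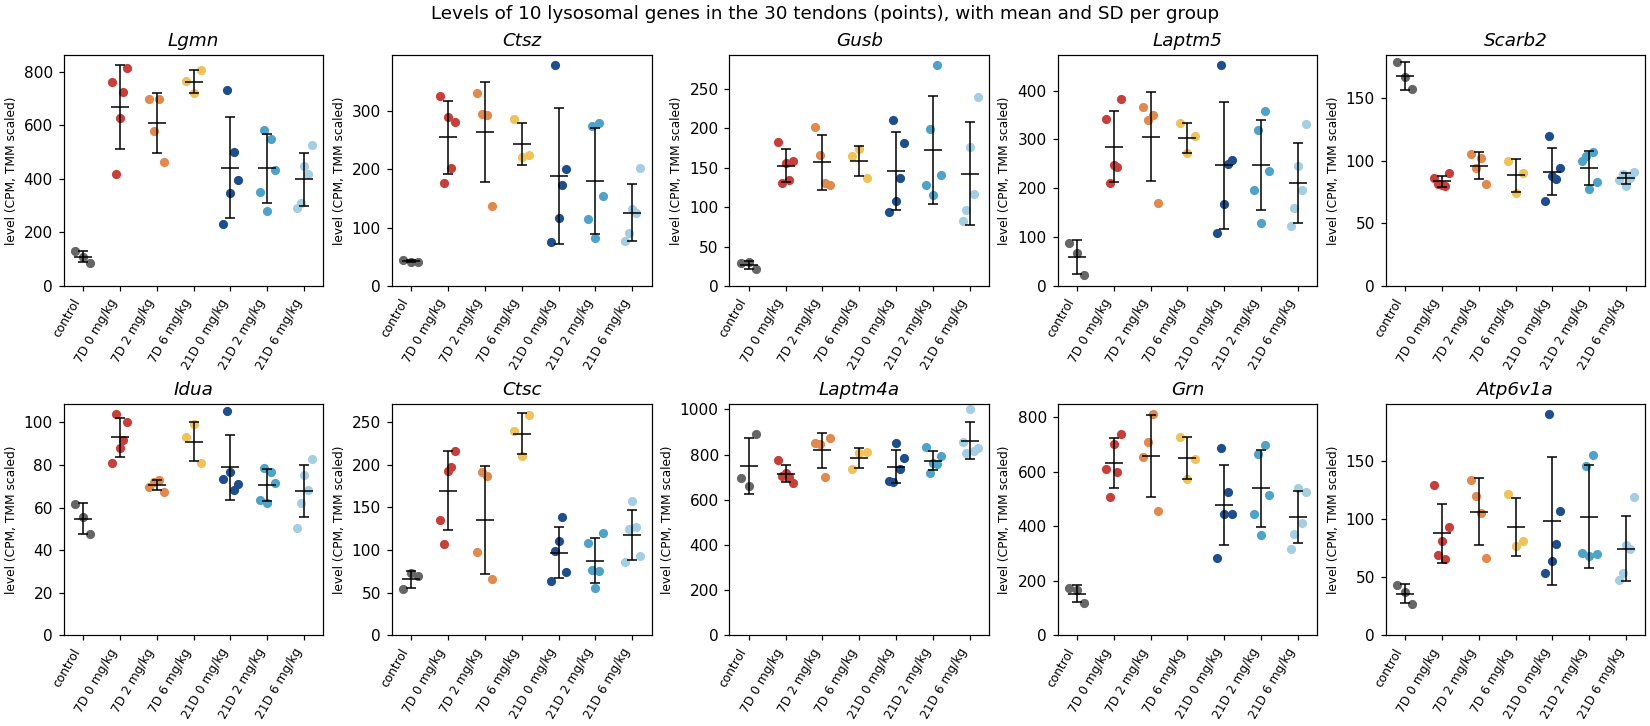
Levels in CPM of 10 lysosomal genes in each of the 30 tendons (points), with the mean and SD of each group; the y axes start at 0 and differ between genes. Lgmn, Ctsz, Gusb, Laptm5, Grn and Atp6v1a are above control in all 27 repaired tendons and Scarb2 is below, while Laptm4a overlaps in every group.

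Changes were also set beside the promoter match. Of the 6 genes with CACGTG in the window, 5 were higher at 7D 0 mg/kg, with a median log2 fold change of 0.69. Of the 25 without it 18 were higher, with a median of 1.28, beside 35.8% of all genes tested. The same split was not computed over all genes, and 6 genes are too few to compare the medians. These are descriptions of 31 genes, with no test.

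At 21D 0 mg/kg, 25 of the 37 were higher than in control tendons and 1 was lower, beside 32.2% and 33.7% of all genes tested. The median log2 fold change was 0.95, beside 0.03 over all genes. In 22 of the 37 every repaired tendon was above every control and in 1 every one was below, beside 25.0% and 27.9% of all genes. The share of the counts in the 37 genes, before TMM scaling, ran from 1.10 to 2.09% over the 21D tendons, a wider range than at 7D. The dosed groups were compared with the same 3 control tendons, so their counts are not independent of one another. At 7D 2 mg/kg 30 genes were higher and 1 lower (35.8% and 34.0% of all genes), and at 7D 6 mg/kg 28 and 1 (34.1% and 33.8%). At 21D 2 mg/kg 25 were higher and 1 lower (33.8% and 35.3%), and at 21D 6 mg/kg 24 and 1 (30.8% and 33.3%). In all 6 comparisons 21 of the 37 were higher, and 6 (Atp6ap1, Lamp1, Laptm4a, Npc1, Psap and Tpp1) were called in none. The shares of all genes called in all 6 or in none were not computed. Because the 6 comparisons share their controls, these counts do not show repeated evidence for a gene. Median log2 fold changes of the 37 were 1.22 and 1.29 at 7D for 2 and 6 mg/kg, and 1.02 and 0.91 at 21D.

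Markers of other cells also differed between repaired and control tendons. Of 13 macrophage and myeloid markers 11 were higher and none lower at 7D 0 mg/kg, beside 35.8% and 35.6% of all genes tested. Their median log2 fold change was 1.82. At 21D 9 were higher and none lower, beside 32.2% and 33.7% of all genes. The summed level of the 13 markers was 361 to 1441 CPM in controls, 1898 to 4131 CPM at 7D and 1034 to 5981 CPM at 21D. None of the 13 was at 0 in any of those tendons. Cd68, 1 of the 13, is a lysosomal protein too, though not among the 37. Summed over the 37 lysosomal genes, a sum weighted towards genes with many reads, the level was 8236 to 9061 CPM in controls, 13948 to 18873 CPM at 7D and 10184 to 19805 CPM at 21D. The 21D tendon highest in the lysosomal sum (replicate 2) was also highest in the macrophage markers and lowest in muscle markers, and the lowest (replicate 1) was lowest in the macrophage markers. Summed osteoclast markers were likewise highest in replicate 2 (1696 CPM) and lowest in replicate 1 (698 CPM). At 7D 2 mg/kg, replicate 5 had 14927 CPM in the lysosomal sum, below the other 3 (18398 to 19229 CPM), and 1956 CPM in macrophage markers, below 3548 to 4242 CPM. The sums did not rank alike throughout. In that group the lysosomal sum was highest in replicate 2 and the macrophage sum in replicate 3. At 21D 6 mg/kg the lysosomal sum was highest in replicate 3 (16977 CPM). The macrophage sum there was highest in replicate 5 (3168 CPM, beside 2439 CPM in replicate 3). Control replicate 4 had the lowest macrophage sum (361 CPM) and the highest muscle share (24.0%). Its lysosomal sum of 8535 CPM lay between those of the other controls (8236 and 9061 CPM). Without control replicate 4, 25 of the 37 genes were higher and 1 lower at 7D, and 25 and 1 at 21D, with medians of 0.92 and 0.71. The macrophage and myeloid markers then counted 7 higher and none lower at 7D, with a median of 1.47, and 7 higher and 1 lower (Cd163) at 21D, with a median of 0.85. Shares of all genes were not computed for that fit. The part of macrophage number, or of muscle in the controls, in the lysosomal result was not tested, and muscle content and surgery cannot be told apart in controls that all hold more muscle RNA.

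**Figure D3:**
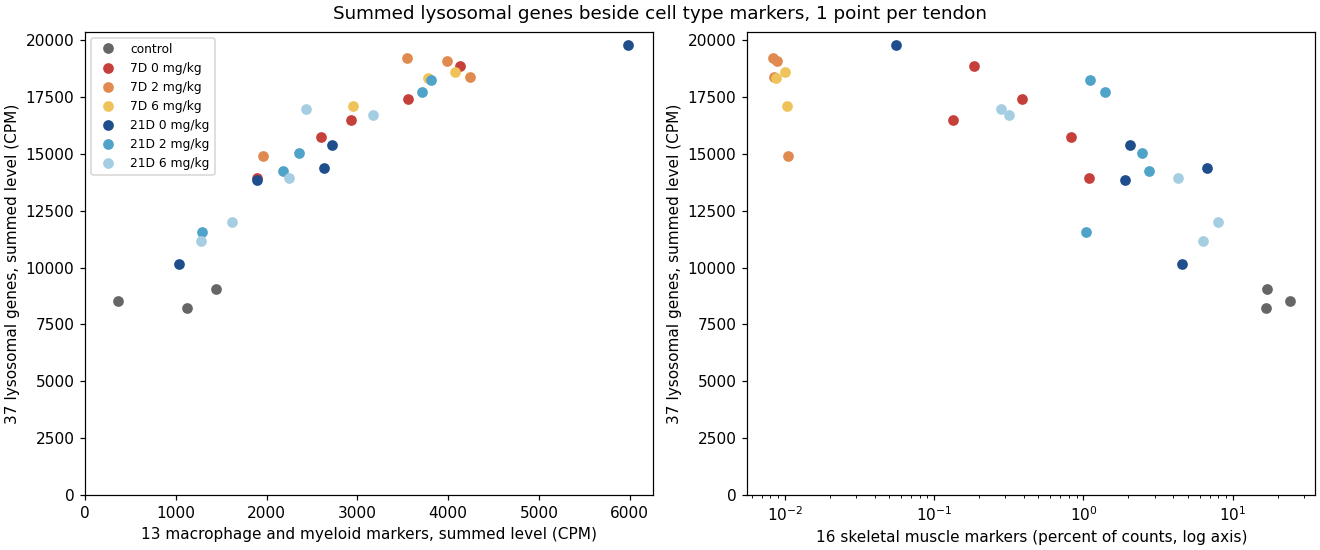
Summed level of the 37 lysosomal genes in CPM against the summed level of 13 macrophage and myeloid markers in CPM (left) and against the percent of counts from 16 skeletal muscle markers on a log axis (right), 1 point per tendon. Controls lie at 8236 to 9061 CPM with 16.7 to 24.0% muscle counts, and all 27 repaired tendons lie above them, from 10184 CPM upward.

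Other genes of the pathway were compared at 7D 0 mg/kg, where 35.8% of all genes tested were higher and 35.6% lower. Among 18 further lysosomal hydrolases, 13 were higher and 2 lower, with a median of 1.0 on the log2 scale. Scpep1, a serine carboxypeptidase (1.65 ± 0.21, SE), the sulfatase Arsa (0.77 ± 0.10) and the aspartylglucosaminidase Aga (0.68 ± 0.10) had the smallest adjusted p. The 2 lower ones depended on the scaling. Ids, the iduronate sulfatase (−0.61), was not called with library size alone (−0.08), and Smpd1, the acid sphingomyelinase (−0.36), turned higher (0.25, adjusted p = 0.0105). Ctsk and Acp5, hydrolases known from osteoclasts, had 107.5 and 11.9 CPM on average in controls and 675 and 99.9 CPM at 7D. All 6 osteoclast genes tested were higher, with Ctsk, Acp5 and the pump subunit Atp6v0d2 among them.

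Of 16 other proton pump subunits 8 were higher and 3 lower. With library size alone 13 were higher and none lower, beside 7474 and 2418 of the 12558 genes tested. Atp6v0a2 (0.74 ± 0.12) and Atp6v0d1 (0.52 ± 0.11), subunits of the membrane sector, rose. Atp6v0d2, the form of that subunit used by osteoclasts, had 0 to 6 counts in the controls, at most 0.283 CPM, and 3.10 to 15.9 CPM at 7D. Enzyme delivery held 3 higher and 3 lower of 8, near the shares of all genes tested, and the 3 lower were not called with library size alone. The adaptor Gga2 rose (1.72 ± 0.15), and the sorting receptor Sort1 (−1.12 ± 0.25) and the adaptor Gga1 (−0.59 ± 0.12) were lower on the TMM scale only, with −0.54 and 0.03 with library size alone.

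Among the 4 MiT/TFE factors, Tfeb fell by 1.34 on the log2 scale (SE 0.18, adjusted p = 3.99e-07) and stayed lower with library size alone (−0.71), and Tfec, the member expressed in macrophages, rose (2.48 ± 0.53, adjusted p = 0.000189). Tfe3 (0.36 ± 0.18) and Mitf (0.28 ± 0.25) did not pass, but were called higher with library size alone. Of 4 cystatins, which inhibit cathepsins, Cstb (1.42 ± 0.26) and Cst7, found in immune cells (2.53 ± 0.61), rose. Cst3, the secreted cystatin C, was lower on the TMM scale (−0.83 ± 0.24) and not called with library size alone (−0.26), and Cst6 did not pass (1.63 ± 1.01). Of 16 autophagy genes 4 were higher and 10 lower, with a median of −0.52. With library size alone the median turned to 0.11, with 6 higher and 4 lower, beside 7474 and 2418 of the 12558 genes tested. The autophagy receptors Sqstm1 (−1.28 ± 0.13) and Optn (−1.91 ± 0.21) and the LC3-related Gabarapl2 (−1.39 ± 0.16) were lower, and stayed lower with library size alone (−0.65, −1.30 and −0.74). Muscle genes took 16.7 to 24.0% of the counts in control tendons, beside 0.134 to 1.10% at 7D 0 mg/kg. The part of muscle in the changes of the autophagy genes and of Tfeb was not tested.

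**Figure D4:**
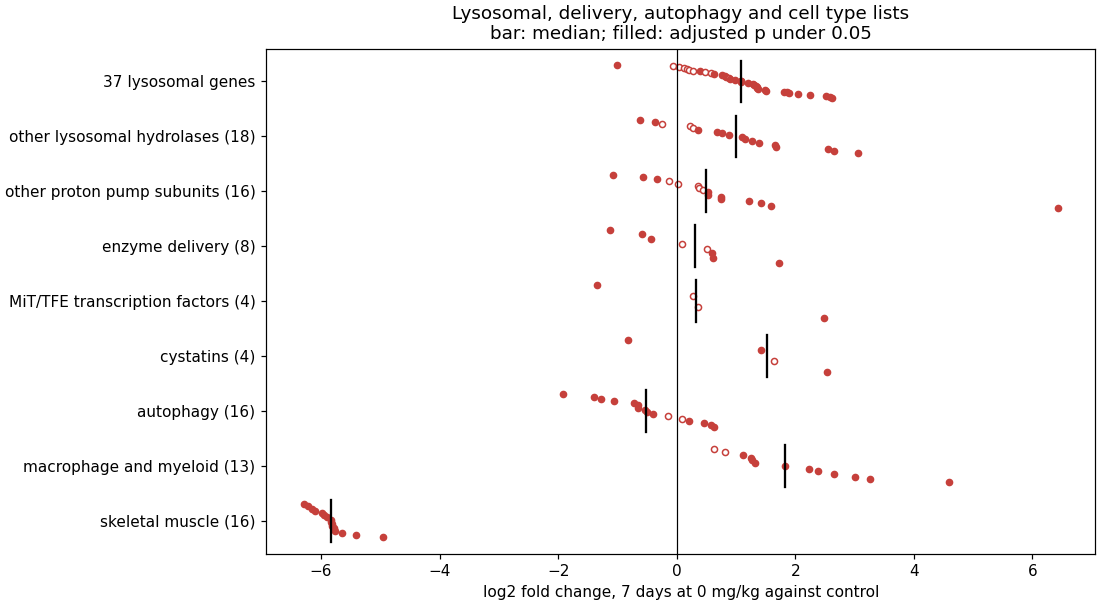
Log2 fold change at 7D 0 mg/kg against control for the 37 lysosomal genes, 6 related lists and 2 cell type lists, with the number of genes in parentheses, a bar at the median of each list and filled points for genes that passed the test. The medians run from −5.83 for muscle to 1.82 for macrophages, with 1.09 for the lysosomal genes and −0.52 for autophagy, which turned to 0.11 with library size alone. The point near 6.4 is Atp6v0d2, whose fold rests on 0 to 6 counts in controls.

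Levels at 21D were then compared with 7D at each dose. At 0 mg/kg none of the 37 differed by the edgeR test (3 at an unadjusted p under 0.05, and 1 lower by DESeq2), beside 2.88% of all genes higher and 2.47% lower. The 3 were Ctsc (−0.81, adjusted p = 0.0727, and 0.0299 by DESeq2), Lgmn (−0.60, adjusted p = 0.138) and Ctsl (−0.37, adjusted p = 0.15). The log2 fold changes of 26 of the 37 were below 0, with a median of −0.14, beside a median of 0.01 over all genes tested. How many of all genes were below 0 is not given here, at this dose or the others. Without 21D 0 mg/kg replicate 2, the tendon highest in macrophage markers, 2 were lower at 21D, Lgmn (−0.86, adjusted p = 0.0239) and Idua (−0.36, adjusted p = 0.0390).

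At 2 mg/kg 2 of the 37 were lower at 21D and none higher, beside 5.98% and 7.09% of all genes, and 32 of the 37 log2 fold changes were below 0. Ctsl, a cysteine protease with broad endopeptidase activity, had 1594, 1364, 1239 and 1545 CPM at 7D and 1011, 1113, 775, 1094 and 900.2 CPM at 21D. Acp2 had 67.8, 59.8, 61.5 and 67.6 CPM at 7D and 50.8, 55.4, 45.8, 55.3 and 51.2 CPM at 21D. In both genes all 21D tendons were below all 7D tendons. Ctsl fell by 0.55 on the log2 scale (SE 0.17, adjusted p = 0.0287) and Acp2 fell by 0.31 (SE 0.10, adjusted p = 0.0432). Neither call held without 7D replicate 2 or 5, or without 21D replicate 1, 3 or 5, where 0 were called, and without 7D replicate 4 only Ctsl remained.

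At 6 mg/kg 3 of the 37 were lower at 21D and none higher, beside 4.55% and 8.54% of all genes, and 34 of the 37 log2 fold changes were below 0, with a median of −0.32. Lgmn had 765, 719 and 804 CPM at 7D and 289.9, 309, 447, 417 and 526 CPM at 21D. Ctsc had 239.9, 211 and 258 CPM at 7D and 85.7, 125, 158, 128 and 93.4 CPM at 21D. In both, every 21D tendon was below every 7D tendon. Idua had 93.0, 99.2 and 80.9 CPM at 7D and 50.6, 62.2, 75.5, 68.1 and 82.7 CPM at 21D, and these overlapped in 1 tendon of the later group. Ctsc was 2.01-fold lower at 21D (log2 fold change −1.0 ± 0.30 (SE), adjusted p = 0.0288) and Lgmn 1.92-fold lower (log2 fold change −0.94 ± 0.28 (SE), adjusted p = 0.0263). For Idua the decrease was smaller, 1.34-fold (log2 fold change −0.42 ± 0.14 (SE), adjusted p = 0.0431). No member was called without 7D replicate 1, 4 or 5 or without 21D replicate 1 or 2, and 6 were called without 21D replicate 3. Ctsc was not called without 21D replicate 5, nor Idua without 21D replicate 4 (adjusted p = 0.0690) or with only the 2 groups in the fit (adjusted p = 0.114). Replicate 3 of that group held 0.283% muscle counts, beside 0.320% in replicate 5 and 4.27 to 8.00% in replicates 1, 2 and 4. Whether the change from 7D to 21D differed between doses was tested as an interaction, and no member passed (none at an unadjusted p under 0.05, none by DESeq2, 0.390% of all genes).

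**Figure D5:**
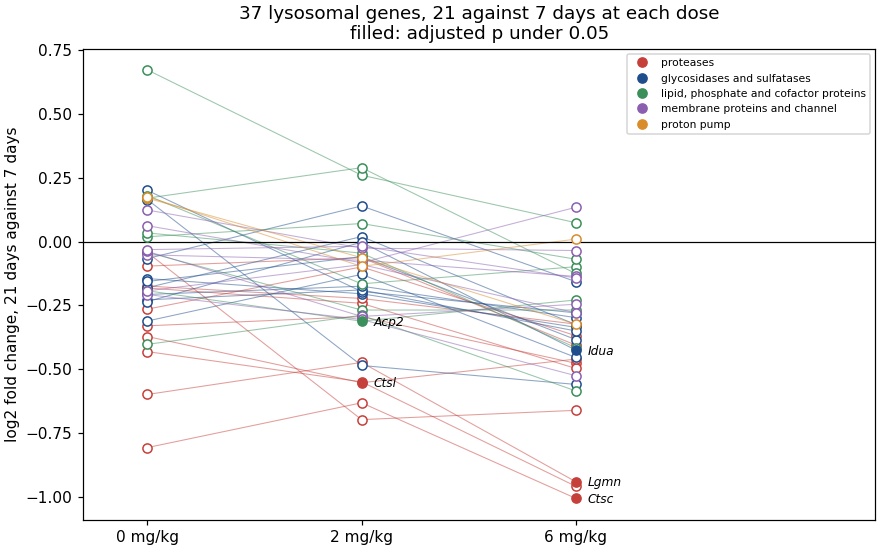
Log2 fold change of each of the 37 lysosomal genes at 21D against 7D, at 0, 2 and 6 mg/kg, coloured by role and joined by gene, with filled points at an adjusted p under 0.05. Filled points are Ctsl and Acp2 at 2 mg/kg and Lgmn, Ctsc and Idua at 6 mg/kg. Below 0 lie 26, 32 and 34 of the 37 points, given without the share of all genes below 0.

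The doses of GSK2894631A were compared last. No member differed across the doses at 7D by the edgeR F-test (1 at an unadjusted p under 0.05, none by DESeq2), where 2.05% of all genes did, or at 21D (none at an unadjusted p under 0.05, none by DESeq2), where 0% did. In pairs at 7D none of the 37 passed between 2 and 0 mg/kg (2.36% of all genes), 6 and 0 mg/kg (0.390%) or 6 and 2 mg/kg (0%), with 1, 0 and 2 members at an unadjusted p under 0.05. By DESeq2 1 member, Idua, was lower at 2 than at 0 mg/kg and none differed in the other 2 pairs. Log2 differences of the 37 ran from −0.40 to 0.53 for 2 against 0 mg/kg, from −0.11 to 0.48 for 6 against 0 mg/kg and from −0.39 to 0.80 for 6 against 2 mg/kg.

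Idua came nearest. It had 81.1, 104, 88.1, 91.6 and 100.01 CPM at 0 mg/kg, 69.9, 72.2, 72.9 and 67.5 CPM at 2 mg/kg and 93.0, 99.2 and 80.9 CPM at 6 mg/kg at 7D. The 4 tendons at 2 mg/kg were all below the 5 at 0 mg/kg and the 3 at 6 mg/kg. Its difference between 2 and 0 mg/kg was −0.40 on the log2 scale (95% interval −0.66 to −0.13, adjusted p = 0.109). It was called by DESeq2 (adjusted p = 0.0350) and when only those 2 groups were fitted (adjusted p = 0.0447). Across the 3 doses its adjusted p was 0.221.

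Ctsc had 135, 108, 193, 197 and 216 CPM at 0 mg/kg, 97.2, 191, 187 and 66.6 CPM at 2 mg/kg and 239.9, 211 and 258 CPM at 6 mg/kg at 7D. At 2 mg/kg its tendons fell into a high and a low pair, and at 6 mg/kg all 3 were within or above the range at 0 mg/kg. All 3 tendons at 6 mg/kg were above all 4 at 2 mg/kg. The Ctsc difference between 6 and 2 mg/kg was 0.80 on the log2 scale (95% interval 0.14 to 1.46, edgeR adjusted p = 0.506). Between 6 and 0 mg/kg its 95% interval was −0.15 to 1.10 (edgeR adjusted p = 0.956). Laptm4a, next by adjusted p (0.608 across doses), had 852, 847, 702 and 875 CPM at 2 mg/kg and 735, 809 and 812 CPM at 6 mg/kg at 7D, and its difference between 2 and 0 mg/kg lay within −0.01 to 0.40. Genes of skeletal muscle differed between these groups, at 0.134 to 1.10% of the counts at 0 mg/kg and 0.00835 to 0.0106% at 2 and 6 mg/kg, and their part in the dose values of the lysosomal genes was not tested.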

How the data were processed

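RNA sequencing counts of 30 rat plantaris tendons were used, with groups taken from their labels. The labels give 3 tendons at 7D 6 mg/kg, where the sample removals the study describes leave 4, and the labels were followed. The authors trimmed single-end reads of 50 bases, aligned them to rn6 by STAR, using Ensembl release 95, and deposited raw counts per gene, with no normalization. A second deposited table holds the authors' log2 fold changes, p-values and FDR, which were not used; only each gene's identifier, chromosome and width were taken from it. Widths span introns, so levels were compared between tendons and not between genes.

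Counts were analysed with edgeR 4.0.16 in R 4.3.3. Genes whose mean reached 3 CPM in any of the 7 groups were kept (12558 of 13124; 566 removed), libraries were scaled by TMM, and 1 quasi-likelihood model with a mean per group was fitted to the 30 tendons, without covariates. Fold changes, their SE (the log2 fold change over the root of F) and Benjamini-Hochberg adjusted p over all genes kept came from contrasts of it, called at 0.05; doses at a time and the dose by time interaction were F-tests. Levels are TMM-scaled CPM. The floor of 3 counts was 0.0601 to 0.242 CPM, and covers counting error only. The least chi-square per gene between tendons of a group was 30.7, so none was a duplicate. Whether tendons are from separate rats rests on the study's description.

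Genes given by tendon were the 4 with the largest increase and, of those called, the largest decreases at 7D 0 mg/kg, the 3 of lowest adjusted p between doses at 7D, the largest change in each role, and called ones at 21D against 7D; Lipa was added after its values were seen. Of each related list the 3 genes with the smallest adjusted p, or all of 4, are named; other names there were added after their values were seen. Members, lists and tests were chosen with earlier results of these data known. Alternatives were RLE or library size alone, no filter or filterByExpr, only the groups compared, the replicate number as a block, a 1.5-fold minimum, muscle genes left out, DESeq2 1.42.0 and leaving out each tendon. The model was tested on simulated data. Promoter sequences are RefSeq's, GRCr8, and no rn6 coordinate was used.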

Additional observations from a re-analysis of the deposited data

Results flagged for a closer look

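In 9 of 185 sets of tendons (the 37 lysosomal genes in each of the 5 groups with 4 or 5 tendons), 1 tendon stood away from the others by Dixon's 95% criterion, which chance passes in about 1 of 20 sets. Of the 9, 5 were in the 7D 2 mg/kg group. Replicate 5 of that group was low for Laptm5 (170.0 CPM, others 339 to 366) and Npc1 (36.4 CPM, others 54.3 to 56.4) and high for Mcoln1 (40.2 CPM, others 37.7 to 38.1). The same tendon was lowest of its group in macrophage markers, 1956 CPM beside 3548 to 4242, and the part of those markers was not tested. Replicate 4 of that group was high for Man2b1 (285 CPM, others 214 to 224) and low for Laptm4a (702 CPM, others 847 to 875). The rest were Idua in 21D 0 mg/kg replicate 2 (105.6 CPM, others 68.1 to 76.7), Hexa in 21D 2 mg/kg replicate 3 (219.9 CPM, others 258 to 268), Lipa in 21D 6 mg/kg replicate 5 (417 CPM, others 100.5 to 185) and Laptm4a in 21D 6 mg/kg replicate 3 (1004 CPM, others 807 to 854).

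The change against control differed between the time points, by the test of 21D against 7D, for 5 genes at 1 dose each. These were Ctsl (log2 difference −0.55) and Acp2 (−0.31) at 2 mg/kg, and Ctsc (−1.0), Lgmn (−0.94) and Idua (−0.42) at 6 mg/kg, all lower at 21D. Of all genes tested, 5.98% were lower at 21D at 2 mg/kg and 4.55% at 6 mg/kg. Leaving out 1 tendon at a time gave 0 to 2 lysosomal genes lower at 2 mg/kg and 0 to 6 at 6 mg/kg. Whether the differences of the 5 genes were particular to a dose was tested by the interaction of dose and time, which none of the 5 passed.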

How the results depend on the processing

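In the 6 comparisons with control, the number of lysosomal genes called higher stayed within 1.5 times of the reported count under every alternative run, library size alone included (36 at 7D and 36 at 21D 0 mg/kg). Leaving out 1 tendon at a time gave 25 to 28 higher at 7D 0 mg/kg, 24 to 27 at 21D 0 mg/kg, 26 to 30 at 7D 2 mg/kg, 25 to 27 at 7D 6 mg/kg, 24 to 27 at 21D 2 mg/kg and 21 to 25 at 21D 6 mg/kg, with 1 lower in each fit. With library size alone 0 were lower at 7D 2 mg/kg, 7D 6 mg/kg and 21D 2 mg/kg, and Laptm4a turned to 0.55 at 7D and 0.58 at 21D 0 mg/kg. That scaling also raised the share of higher genes among all those called from 50.1 to 75.6% at 7D and from 48.9 to 77.9% at 21D. The few calls of 21D against 7D depended on the settings. At 2 mg/kg, 2 lower became 1 with library size alone, with no filter and with filterByExpr, 0 with a 1.5-fold minimum, and 0 to 2 without 1 tendon. At 6 mg/kg, 3 lower became 2, without Idua, with only the groups compared and with a 1.5-fold minimum, 5 with DESeq2 and 0 to 6 without 1 tendon, and at 0 mg/kg none became 1 with DESeq2 and 0 to 2 without 1 tendon. For 2 against 0 mg/kg at 7D, none lower became 1, Idua, with DESeq2 and with only those groups fitted. The cause of these changes was not tested. In the other dose comparisons no fit called a member.

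The replicate numbers gave no clear pairing of the tendons. Deviations of 76 same-numbered pairs correlated from −0.70 to 0.68 with a median of 0.01, and 29 pairs were over 0.1. For 307 pairs with different numbers the range was −0.67 to 0.78 with a median of 0.01, and 89 were over 0.1. Of 30 tendons 6 correlated best with their own number. With the replicate block, 0 genes were lower at 2 mg/kg in 21D against 7D, in place of 2, and no other count left its 1.5-fold range. Groups of 3 to 5 tendons and 12405741 counts in the shallowest tendon limit what could be detected.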
